A study of Mus musculus with 15 samples.

Results

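Mouse embryonic fibroblasts that carried a Neurog1 lentivirus were compared with control fibroblasts 1 day after Neurog1 was switched on, across all genes counted in the deposited table of raw read counts. The comparison takes 6 of the 15 libraries of the study, 3 of Neurog1 at day 1 and 3 controls, each with replicate letters a, b and c. Per the labels' protocols, fibroblasts grown in serum medium were infected with the lentivirus, doxycycline on day 0 turned on its Neurog1, and RNA was taken after 24 h, before the change to neuronal medium on day 2. The labels name no genotype or strain. The labels call the controls nothing more than control: whether they had virus or doxycycline, and for how long they were cultured, is not given in the sources used here, and an effect of Neurog1 cannot be told apart from one of infection or doxycycline. No source tells whether libraries with different letters are from separate cultures. The p-values thus reflect the spread among libraries within the 5 groups of the study, which may be technical.

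Neurog1 is a proneural transcription factor of the basic helix-loop-helix (bHLH) class. Such factors pair with E proteins, bind the short DNA motif called the E-box, and in the embryo start the formation of cranial sensory neurons, in which Neurog1 is required. They switch on further bHLH factors, corepressors and the Notch ligand Dll1, whose signal to neighbouring cells holds back their own proneural genes, while Id proteins block bHLH factors by binding their E protein partners.

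The delivered factor was present in every library labelled with it. Neurog1 (chr13:56250478-56252163, minus strand, mm10) had 0 counts in all 3 controls and 31250, 65277 and 16252 counts with Neurog1 (libraries a, b and c), or 2055, 3842 and 1083 CPM, at least 37656-fold higher. CPM, a read count relative to library size, is scaled here with TMM factors, and a fold against controls without a count is a lower bound set against 3 counts over the group. All 3 Neurog1 libraries lay above all 3 controls, with the most Neurog1 in library b and the least in library c. Viral and endogenous Neurog1 reads could not be told apart.

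The promoters of the early genes are shown first, chosen because these 6 hold letters that Neurog-type factors are known to prefer. In these 6 windows from RefSeq (GRCm38.p6, 250 bases before to 50 after a gene's start, 5′ to 3′ on the gene's strand) capitals mark CAGATG or its reverse complement CATCTG, and CATATG. Tekt1, Nhlh2 and Sct were among the genes with the highest fold changes, and Neurod2, Nhlh1 and Cbfa2t3 belong to the proneural cascade.
Tekt1, chr11:72361247-72361546, minus strand: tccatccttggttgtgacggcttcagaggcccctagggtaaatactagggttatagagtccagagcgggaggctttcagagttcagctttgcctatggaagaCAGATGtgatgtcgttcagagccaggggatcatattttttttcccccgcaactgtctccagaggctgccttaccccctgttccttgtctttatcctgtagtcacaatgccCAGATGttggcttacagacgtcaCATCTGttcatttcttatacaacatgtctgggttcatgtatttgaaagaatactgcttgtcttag
Nhlh2, chr3:102009895-102010194, plus strand: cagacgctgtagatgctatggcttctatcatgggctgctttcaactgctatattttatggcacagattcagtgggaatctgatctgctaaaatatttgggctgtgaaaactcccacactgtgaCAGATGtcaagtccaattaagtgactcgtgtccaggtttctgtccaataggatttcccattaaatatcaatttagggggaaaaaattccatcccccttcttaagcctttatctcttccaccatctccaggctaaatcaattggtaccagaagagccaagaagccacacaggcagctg
Sct, chr7:141279084-141279383, minus strand: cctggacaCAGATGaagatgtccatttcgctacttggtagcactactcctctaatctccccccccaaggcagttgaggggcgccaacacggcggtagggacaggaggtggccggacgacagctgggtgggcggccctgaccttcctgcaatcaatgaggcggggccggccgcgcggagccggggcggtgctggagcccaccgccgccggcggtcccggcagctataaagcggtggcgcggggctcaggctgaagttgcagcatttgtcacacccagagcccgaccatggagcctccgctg
Neurod2, chr11:98329596-98329895, minus strand: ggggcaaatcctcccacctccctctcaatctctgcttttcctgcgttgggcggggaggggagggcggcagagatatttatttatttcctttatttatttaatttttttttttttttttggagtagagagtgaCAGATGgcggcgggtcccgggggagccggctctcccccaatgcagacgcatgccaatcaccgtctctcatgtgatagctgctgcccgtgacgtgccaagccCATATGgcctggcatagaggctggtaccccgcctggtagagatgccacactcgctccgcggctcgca
Nhlh1, chr1:172057547-172057846, minus strand: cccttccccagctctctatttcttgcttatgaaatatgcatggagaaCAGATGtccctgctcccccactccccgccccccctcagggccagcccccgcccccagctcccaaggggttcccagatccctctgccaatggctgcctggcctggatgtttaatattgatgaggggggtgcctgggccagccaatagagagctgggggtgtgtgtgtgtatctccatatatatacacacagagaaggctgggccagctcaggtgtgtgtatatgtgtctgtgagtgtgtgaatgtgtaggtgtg
Cbfa2t3, chr8:122699060-122699359, minus strand: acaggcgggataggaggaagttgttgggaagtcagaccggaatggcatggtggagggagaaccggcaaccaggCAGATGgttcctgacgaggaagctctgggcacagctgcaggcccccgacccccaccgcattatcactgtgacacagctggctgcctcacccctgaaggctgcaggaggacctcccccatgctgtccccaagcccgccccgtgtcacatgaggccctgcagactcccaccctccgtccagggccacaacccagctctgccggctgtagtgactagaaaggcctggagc

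Windows with CAGATG or CATCTG were 17.4% of those of genes that rose (197 of 1135), 14.1% of those of genes that fell (134 of 952), 11.5% of those of genes not called and 17.2% of all 32851 windows in the table. Among genes that rose from at most 3 counts over the 3 controls the share was 30.0% (27 of 90 windows). Among genes with at most 3 control counts that were not called it was 16.9% (55 of 326). The filter on low counts ran over all 15 libraries, so such genes could pass it through other groups of the study. Those that rose could pass through the Neurog1 libraries, so these sets are not matched. Of the genes tested, 61 had 0 counts in the 6 libraries compared. The palindrome CATATG was in 7.78%, 5.21% and 3.91% of windows of these silent genes that rose, silent genes not called and all windows. For CAGCTG, the E-box of myogenic factors, the same shares were 22.2%, 25.2% and 16.3%, and for CACGTG, the E-box of Myc-type factors, 6.67%, 5.21% and 7.15%. CACCTG or its reverse complement CAGGTG, the E-box of Snail and Zeb repressors, was in 18.9%, 24.8% and 20.2%, and any CANNTG in 73.3%, 72.7% and 72.3%. Over all genes that rose, fell or were not called, CAGCTG was in 20.7%, 19.2% and 15.4% of windows. For CACCTG or CAGGTG these shares were 18.1%, 20.8% and 18.1%. Among genes that rose at least 8-fold, CAGATG or CATCTG was in 22.8% of windows and CAGCTG in 24.3%. Both strands were searched, any CANNTG includes all the others, and a gene can have several overlapping windows; 11965 of the 16872 genes tested had at least 1. Of the 20 called genes of the early proneural list 17 had a window, of which 9 had CAGATG on either strand or CATATG in at least 1 and 8, among them Dll1 and Gfi1, in none. Over their 29 windows 15 had a match, and the other window of Cbfa2t3 is without one. The same count over these motifs together was not made for other genes, so these counts stand without a comparison. These matches are a description of letters, with no test, and say nothing of binding.

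Of 16872 genes tested, 1144 (6.78%) rose and 914 (5.42%) fell at a Benjamini-Hochberg adjusted p under 0.05 by edgeR's quasi-likelihood test, the test behind every call and adjusted p given here. The changes were at least 2-fold in 889 and 745 of them and at least 8-fold in 294 and 136. The Neurog1 and control libraries did not overlap in 1137 of the genes that rose and 884 of those that fell. Over all 16872 genes tested, called or not, they did not overlap in 4997, so a lack of overlap was common. Whichever of the 6 libraries was left out, 656 genes stayed called higher and 405 lower. Counts of genes in a list, given below, stand against the shares of 6.78% and 5.42%. Their counts that held whichever library was left out stand against 656 and 405 of 16872. The 914 lower became 550 without Neurog1 library a and 560 without Neurog1 library b. Of the genes that rose, 52 had 0 counts in the controls and 120 had at most 3. Over all genes the median log2 fold change was 0.02. Below, a value with ± is a log2 fold change of 3 against 3 libraries with its standard error. That error comes from the fit, whose estimate of the spread is shared by all 15 libraries of the study. A pair of CPM is the mean of the controls and of the Neurog1 libraries. These are bulk RNA libraries, in which fewer cells of a type and less RNA per cell cannot be told apart. Libraries held 16736544 to 17859844 counts, with 20252 to 20774 genes seen. Within groups Pearson's r across genes ran from 0.967 to 0.984, and between groups from 0.927 to 0.953. Mitochondrial genes took 3.06% to 3.91% of counts in the controls and 2.48% to 4.21% with Neurog1.

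**Figure D1:**
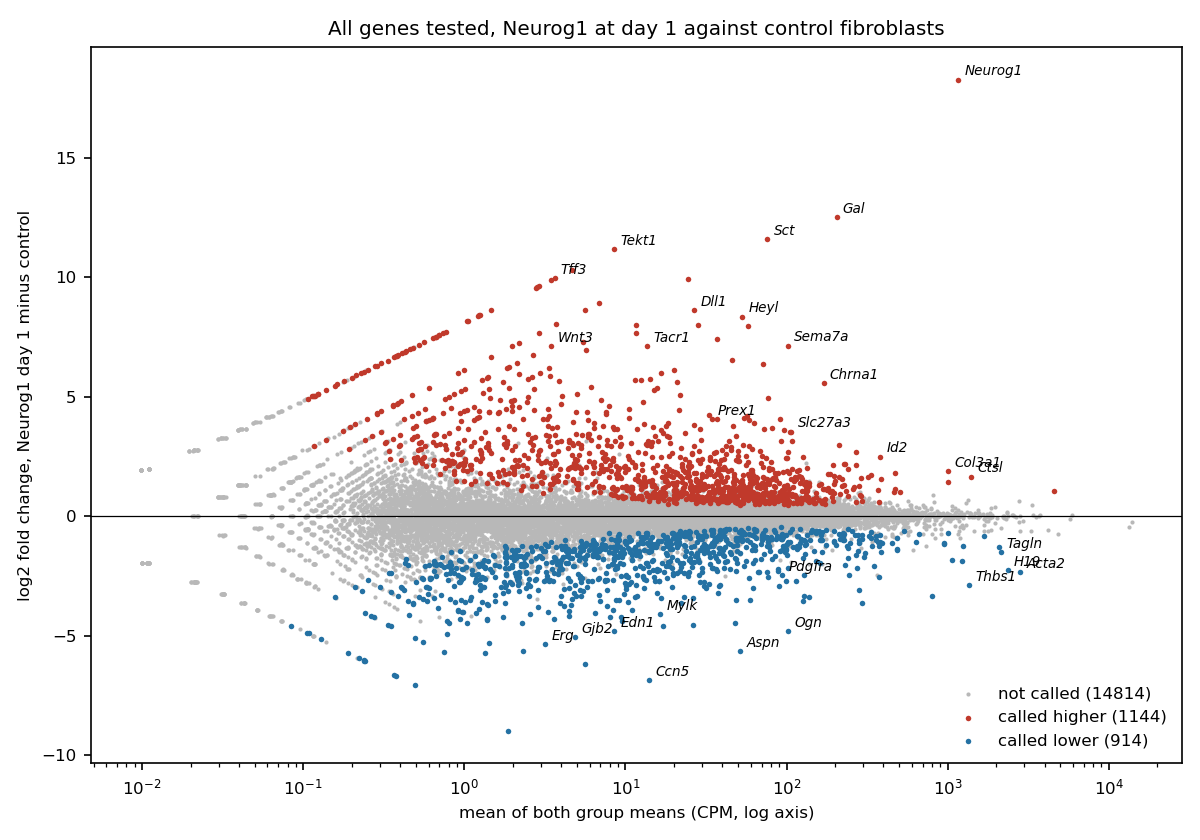
Log2 fold change of Neurog1 at day 1 against the controls (vertical axis) by the mean of both group means in CPM (horizontal log axis) for the genes tested, 1 point a gene, red for the 1144 called higher and blue for the 914 called lower. Neurog1, Gal and Sct lie highest, Ccn5 and Aspn are among the lowest, and Acta2, Tagln and Thbs1 are the falls at high level; the diagonal edges are genes without counts in 1 group, whose fitted values depend on the prior count.

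The order of the 3 Neurog1 libraries was not the same for all genes. Of the genes that rose, 59.3% were highest in library b, which had the most Neurog1, and 14.4% in library c, which had the least. For genes not called these shares were 32.3% and 37.1%. Genes that fell were highest in library c in 44.8% and in library b in 26.1%. Beside this, leaving out library b took the genes called higher from 1144 to 765, and leaving out any other of the 6 libraries to between 824 and 983. The controls, without Neurog1 counts, also had an order that differed by call. Genes that rose were highest in control c in 38.1%, against 24.9% of genes not called. The 3 Neurog1 libraries are too few to test a relation with the level of Neurog1, and other differences between these libraries were not tested.

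**Figure D2:**
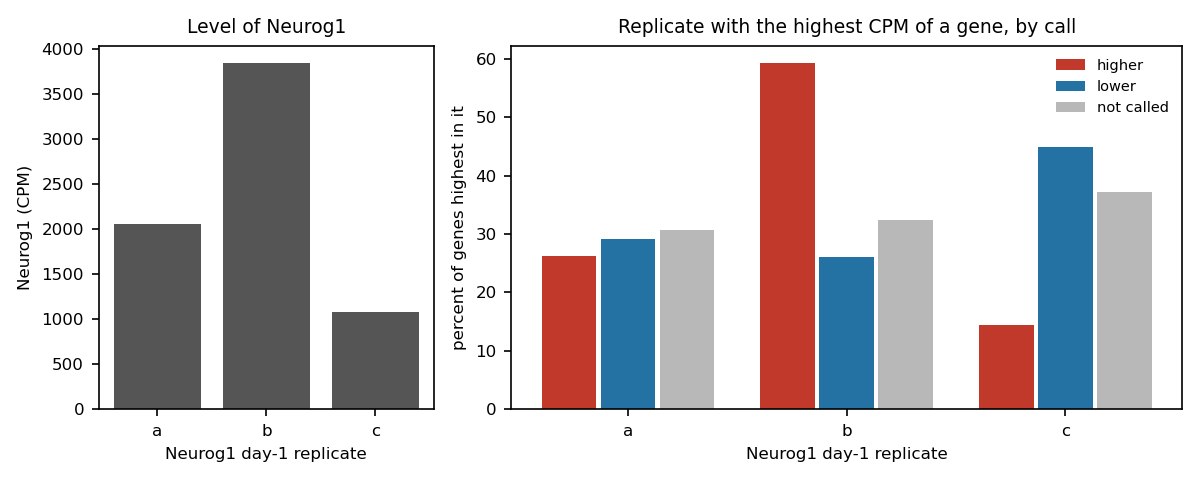
Left, CPM of Neurog1 in the 3 Neurog1 day-1 libraries; right, the percent of genes whose highest CPM among these 3 libraries is in a, b or c, for genes called higher (red), called lower (blue) and not called (grey). Genes called higher are highest in library b in 59.3%, against 32.3% of genes not called.

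Transcription factors of the proneural cascade rose together. Of 48 tested genes on the early proneural list, which was drawn up with earlier results of these data known, 20 rose (41.7%), 18 of them whichever library was left out, and the other 28 were not called. Nhlh2, a bHLH factor of newborn neurons (chr3:102010076-102015492, plus strand), was at 0 CPM in all 3 controls and 5.52, 5.89 and 5.33 CPM with Neurog1 (at least 88.1-fold higher, adjusted p = 2.40e-05). Its paralog Nhlh1 was at 0, 0 and 0.181 CPM in the controls and 2.104, 5.83 and 2.26 CPM with Neurog1 (55.1-fold higher, with a 95% counting interval of 18.5 to 269.9, adjusted p = 0.00119). Neurod1, which follows the neurogenins in sensory neurons, was at 0 CPM in all 3 controls and 0.592, 1.94 and 1.67 CPM with Neurog1 (at least 22.4-fold higher, adjusted p = 0.00205). Each was near silent in every control and present in every Neurog1 library, with no overlap. Bhlhe22, a bHLH repressor of cortical and spinal neurons, was already expressed and rose from 2.98 to 23.9 CPM (log2 fold change 3.002 ± 0.57), and Atoh8, another bHLH relative, rose from 19.9 to 95.96 CPM (2.27 ± 0.27). Outside the bHLH class, Lzts1, which drives newborn neurons out of the progenitor layer, rose from 0.419 to 22.5 CPM (5.71 ± 0.53, 5.12 without Neurog1 library b). Zbtb18, a repressor needed in cortical neurons, rose by 1.91 ± 0.31, and Ebf3 and Sox11, 2 factors of early neurons, by 1.23 ± 0.19 and 1.38 ± 0.20 on the log2 scale. Tubb3, the neuronal tubulin, was the uncalled member with the highest CPM, at 21.8, 53.9 and 49.8 CPM in the controls and 58.7, 189 and 70.6 CPM with Neurog1 (adjusted p = 0.115, or 0.00665 with no filter on low counts).

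Genes of repressor complexes were among the early risers. Of 23 tested genes of the REST, CoREST and MYT list 7 rose, 6 of them whichever library was left out, and the other 16 were not called. All of these risers but Kdm1a are also on the early proneural list and were counted there. Gfi1, a zinc-finger repressor of hair cells and blood cells (chr5:107716657-107726036, minus strand), was at 0.0662, 0 and 0 CPM in the controls and 15.1, 8.01 and 10.3 CPM with Neurog1 (521-fold higher, with a 95% counting interval of 93.1 to 20612, adjusted p = 3.93e-06). Cbfa2t3, an ETO-family corepressor (chr8:122625141-122699109, minus strand), was at 0.132, 0.128 and 0.362 CPM in the controls and 44.5, 81.2 and 42.7 CPM with Neurog1 (log2 fold change 8.01 ± 0.49, adjusted p = 9.65e-08, 8.65 without control library c). In both genes the lowest Neurog1 library stood far above the highest control. Cbfa2t2, its paralog, rose from 34.9 to 74.1 CPM (1.09 ± 0.24). Rcor2, a CoREST subunit, was at 6.42, 17.2 and 17.3 CPM in the controls and 80.2, 146 and 84.3 CPM with Neurog1 (log2 fold change 2.92 ± 0.34, adjusted p = 4.42e-05), and its partner Kdm1a, a histone demethylase also called LSD1, rose from 90.9 to 156 CPM (0.78 ± 0.15). Insm1, a zinc-finger factor of neuroendocrine cells, reached 1.05, 1.47 and 1.13 CPM (19.4-fold higher, with a 95% counting interval of 6.31 to 96.6, adjusted p = 0.00015). Myt1l, a repressor of non-neuronal genes, was called only at 0, 0 and 1 counts in the controls and 6, 4 and 12 counts with Neurog1, and that call was lost without control library a, b or c or Neurog1 library a or c (adjusted p = 0.051 to 0.113).

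The Notch ligands Dll1 and Jag2 and the Notch target Heyl rose. Of 41 tested Notch genes 9 rose and 2 fell, 5 and 1 of them whichever library was left out. No other Hes or Hey gene on this list was called, and neither was Nrarp, Jag1, Dll3 or Dll4. Dll1 (chr17:15367354-15376872, minus strand) was at 0.199, 0.192 and 0 CPM in the controls and 56.2, 56.1 and 48.1 CPM with Neurog1 (log2 fold change 8.63 ± 0.42, adjusted p = 1.58e-08, 8.02 without control library c). Jag2, another ligand, was at 0.596, 0.256 and 0.543 CPM in the controls and 28.3, 29.4 and 15.7 CPM with Neurog1 (log2 fold change 5.70 ± 0.42, adjusted p = 7.39e-07), and Neurl1b, a ubiquitin ligase that activates ligands by endocytosis, rose from 0.672 to 4.61 CPM (2.77 ± 0.59, 2.10 without Neurog1 library b). Heyl, a bHLH repressor switched on by Notch (chr4:123233556-123249875, plus strand), was at 0.0662, 0.513 and 0.362 CPM in the controls and 85.8, 152 and 78.3 CPM with Neurog1 (log2 fold change 8.35 ± 0.60, adjusted p = 6.02e-07). All 4 were low in each control, and the groups did not overlap. Notch2 rose from 28.5 to 95.2 CPM (1.74 ± 0.34), while Maml2, a coactivator of the Notch complex, fell from 20.4 to 7.35 CPM (-1.47 ± 0.27). Lfng, Dtx2, Dtx4 and Numbl were called higher and Dlk2 lower, but each lost its call without at least 1 library. For Lfng, a sugar transferase that tunes Notch receptors, the call was lost without control library a, b or c or Neurog1 library a, b or c (adjusted p = 0.0506 to 0.146). Dtx2 lost it without Neurog1 library b (adjusted p = 0.0561) and Dtx4 without Neurog1 library b (adjusted p = 0.0554). Numbl lost it without control library a or Neurog1 library b (adjusted p = 0.0885 to 0.124), and Dlk2 without control library a or c or Neurog1 library a or b (adjusted p = 0.0788 to 0.141). Rbpj, the DNA-binding subunit, was not called (187 to 259.7 CPM, log2 fold change 0.48 ± 0.28, adjusted p = 0.341).

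Other bHLH genes moved in both directions. In the list of 75 bHLH factors, E proteins and Id inhibitors 14 rose and 8 fell, 12 and 6 of them whichever library was left out. This list also holds Nhlh1, Nhlh2, Neurod1, Bhlhe22, Atoh8 and Heyl, described above. Id2 was at 139, 80.5 and 127 CPM in the controls and 642, 562 and 746 CPM with Neurog1 (log2 fold change 2.49 ± 0.27, adjusted p = 2.37e-05), and Id1 at 126, 51.8 and 122 CPM in the controls and 473, 403 and 455 CPM with Neurog1 (log2 fold change 2.15 ± 0.33, adjusted p = 0.000404). All 3 Neurog1 libraries lay above all controls for both of these inhibitors. Id4 fell from 19.8 to 3.66 CPM (-2.44 ± 0.47, -3.07 without Neurog1 library c), and Id3 was not called (0.52 ± 0.30, adjusted p = 0.332). Hes6, which relieves the repression by its relative Hes1, rose from 18.6 to 166 CPM (3.16 ± 0.41). Scx, the bHLH factor of tendon cells, fell from 26.3 to 4.07 CPM (-2.69 ± 0.54), the aryl hydrocarbon receptor Ahr from 22.02 to 3.76 CPM (-2.55 ± 0.48) and its repressor Ahrr from 18.1 to 2.204 CPM (-3.03 ± 0.51). The myogenic factor Myog fell from 3.95 to 0.447 CPM (-3.13 ± 0.62), and Myod1 had 6, 22 and 15 counts in the controls and 0, 2 and 1 counts with Neurog1 (14.3-fold lower, with a 95% counting interval of 4.58 to 72.1).

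**Figure D3:**
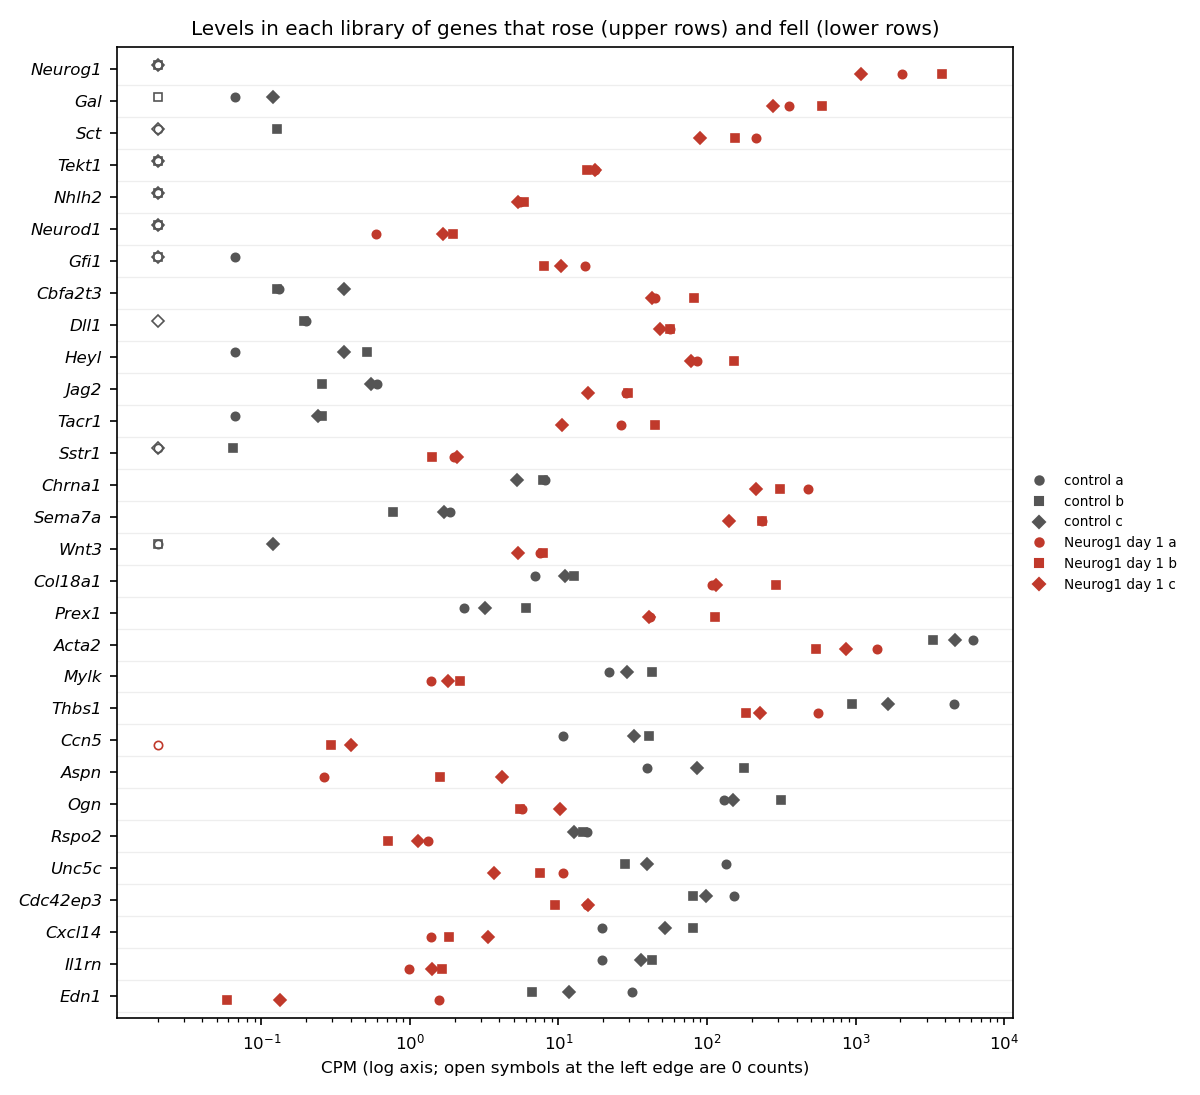
CPM (horizontal log axis) of 30 genes in each of the 6 libraries, grey for controls and red for Neurog1 at day 1, with circles, squares and diamonds for libraries a, b and c. Genes in the upper rows rose and genes in the lower rows, from Acta2 down, fell; in each row all red symbols lie on 1 side of all grey ones.

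Body-plan factors of the fibroblasts were lower or not called. Of 36 tested Hox genes 8 fell (22.2%), 2 of them whichever library was left out, and the other 28 were not called, with a median log2 fold change of -0.74 against 0.02 over all genes. Hoxa10, a limb and trunk gene, was at 51.1, 65.2 and 57.99 CPM in the controls and 25.8, 16.95 and 23.4 CPM with Neurog1 (log2 fold change -1.40 ± 0.24, adjusted p = 0.000972), and Hoxc10 fell from 13.97 to 5.41 CPM (-1.37 ± 0.27). Transcripts of the Hox clusters overlap, and a strand setting is not given in the sources used here. Among 168 other developmental transcription factors 16 rose and 16 fell, 10 of each whichever library was left out. These were 9.5% each, against 6.78% and 5.42% over all genes tested. The mesenchymal factor Prrx1 was at 696, 608 and 562 CPM in the controls and 247, 289.7 and 324 CPM with Neurog1 (log2 fold change -1.12 ± 0.18, adjusted p = 0.000623), below the controls in all 3 Neurog1 libraries. Tbx5 of the forelimb fell from 11.3 to 3.22 CPM (-1.81 ± 0.33), Eya1 from 13.2 to 3.303 CPM (-1.99 ± 0.31) and Klf4 from 34.8 to 12.7 CPM (-1.45 ± 0.25). Nr3c2, the mineralocorticoid receptor, rose from 0.505 to 6.52 CPM (3.67 ± 0.38), Prdm6 from 0.703 to 3.64 CPM (2.36 ± 0.40) and Tbx18 from 24.5 to 52.5 CPM (1.10 ± 0.20). Of 360 zinc-finger genes named Zfp 9 were higher (2.5%) and 4 lower (1.1%), and Zfp423, a partner of Ebf factors, was at 1.39, 3.46 and 2.05 CPM in the controls and 15.5, 29.1 and 13.5 CPM with Neurog1 (log2 fold change 3.07 ± 0.45, adjusted p = 0.000273).

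The secreted peptides Gal and Sct had the largest fitted folds after Neurog1 itself. Of 46 tested neuropeptide and hormone genes 7 rose and 8 fell, 6 and 4 of them whichever library was left out. Gal, the neuropeptide galanin (chr19:3409915-3414544, minus strand), had 1, 0 and 2 counts in the controls and 5407, 10068 and 4182 counts with Neurog1 (6563-fold higher, with a 95% counting interval of 2246 to 31829, adjusted p = 6.83e-08). Sct, the gut hormone secretin (chr7:141278330-141279133, minus strand), had 0, 2 and 0 counts in the controls and 3234, 2616 and 1349 counts with Neurog1 (3606-fold higher, with a 95% counting interval of 998 to 29778, adjusted p = 2.09e-06). The trefoil peptide Tff3 had 0 counts in all 3 controls and 107, 172 and 70 counts with Neurog1 (at least 117-fold higher, adjusted p = 0.000104). These 3 genes were silent or nearly so in every control and had at least 70 counts in every Neurog1 library. Nppc, the C-type natriuretic peptide, reached 1.25, 3.83 and 1.199 CPM (at least 34.1-fold higher), and the prohormone convertase Pcsk2 reached 1.12, 0.706 and 0.266 CPM (33.1-fold higher, with a 95% counting interval of 5.53 to 1345). Gdnf, a survival factor for neurons, rose from 2.13 to 12.9 CPM (2.59 ± 0.34). Among the falls, the growth factor Igf1 was at 15.7, 52.7 and 22.8 CPM in the controls and 1.25, 4.003 and 3.197 CPM with Neurog1 (log2 fold change -3.42 ± 0.53, adjusted p = 0.000436, -2.78 without control library b). Edn1, endothelin, was at 31.1, 6.599 and 11.8 CPM in the controls and 1.58, 0.0589 and 0.133 CPM with Neurog1 (log2 fold change -4.81 ± 1.04, adjusted p = 0.00554, -7.34 without Neurog1 library a and -3.97 without control library a), and Adm, adrenomedullin, fell from 59.98 to 13.1 CPM (-2.19 ± 0.30). Of 19 endocrine genes 5 rose, which were Sct, Neurod1, Pcsk2, Insm1 and the sulfonylurea receptor Abcc8 (at least 21.4-fold higher), and Glis3, a zinc-finger factor of beta cells, fell (-2.18 ± 0.37).

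Peptide receptors were among the G protein-coupled receptors that rose, and lysophospholipid receptors were among those that fell. Of 108 tested G protein-coupled receptors 13 rose and 12 fell, 10 and 6 of them whichever library was left out. Tacr1, the substance P receptor (chr6:82402334-82560104, plus strand), was at 0.0662, 0.256 and 0.241 CPM in the controls and 26.2, 44.7 and 10.5 CPM with Neurog1 (log2 fold change 7.11 ± 0.72, adjusted p = 1.17e-05). The somatostatin receptor Sstr1 reached 1.97, 1.41 and 2.07 CPM (85.1-fold higher, with a 95% counting interval of 14.9 to 3402) and Sstr2 rose from 0.232 to 2.29 CPM (3.26 ± 0.51). Adgrg1, an adhesion receptor of cortical development, rose from 1.17 to 15.5 CPM (3.73 ± 0.34), and the cannabinoid receptor Cnr1 from 3.01 to 13.1 CPM (2.12 ± 0.30). S1pr3, a sphingosine-1-phosphate receptor, was at 175, 123 and 146 CPM in the controls and 39.5, 19.6 and 30.5 CPM with Neurog1 (log2 fold change -2.31 ± 0.26, adjusted p = 2.91e-05), with each Neurog1 library below each control. S1pr1 fell from 38.9 to 11.5 CPM (-1.76 ± 0.36), the lysophosphatidic acid receptor Lpar4 from 73.2 to 15.8 CPM (-2.21 ± 0.28) and the orphan receptor Gpr176 from 98.9 to 28.01 CPM (-1.82 ± 0.32). Of 18 regulators of G protein signalling 4 rose, of which Rgs8, known from the cerebellum, alone kept its call whichever library was left out (0.323 to 3.198 CPM, 3.30 ± 0.64, 3.99 without control library b).

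Some ion channel and transmitter genes rose from low levels and others fell. Of 13 tested genes of the nicotinic receptor list 3 rose and 1 fell, with log2 fold changes from -4.12 to 5.56. Of these calls 2 of the rises held whichever library was left out. Chrna1, the muscle-type nicotinic receptor subunit (chr2:73563215-73580338, minus strand), was at 8.08, 7.82 and 5.25 CPM in the controls and 475, 309.9 and 214 CPM with Neurog1 (log2 fold change 5.56 ± 0.70, adjusted p = 7.55e-05), while the neuronal subunit Chrna7 rose from 2.77 to 7.33 CPM (1.40 ± 0.31). Of 107 voltage-gated and potassium channel genes 15 rose and 7 fell, 9 and 4 of them whichever library was left out. The potassium channel Kcnc4 reached 1.58, 1.24 and 1.199 CPM from 0 (at least 21.04-fold higher), Scn11a, a sodium channel of pain-sensing neurons, reached 1.45, 1.35 and 0.733 CPM (56.1-fold higher, with a 95% counting interval of 9.66 to 2255), and Kcnh1 rose from 0.228 to 7.86 CPM (5.04 ± 0.55, 5.81 without control library c). Kcnk1, a leak channel, was at 4.57, 2.63 and 3.92 CPM in the controls and 25.3, 25.02 and 18.4 CPM with Neurog1 (log2 fold change 2.62 ± 0.30, adjusted p = 3.35e-05), with no overlap. The calcium channel Cacna1c fell from 42.4 to 15.8 CPM (-1.43 ± 0.30), and Kcne4 from 12.5 to 1.26 CPM (-3.30 ± 0.47). Of 49 ligand-gated channels and transporters 7 rose and 11 fell, 5 of each whichever library was left out. Slc17a7, a vesicular glutamate transporter, was at 0, 0 and 0.241 CPM in the controls and 6.12, 10.01 and 3.73 CPM with Neurog1 (log2 fold change 6.18 ± 0.84, adjusted p = 0.000141, 9.81 without control library c), above the controls in all 3 libraries. The glial-type glutamate transporters parted, with Slc1a2 rising from 0.528 to 4.597 CPM (3.11 ± 0.53) and Slc1a3 falling from 23.2 to 3.69 CPM (-2.65 ± 0.30). The purinergic channel P2rx5 rose from 5.44 to 33.7 CPM (2.63 ± 0.39), and the glycine receptor subunit Glrb fell from 14.2 to 3.03 CPM (-2.22 ± 0.30).

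Genes of vesicle release were among the early risers. Of 62 tested synapse genes 12 rose, all 12 whichever library was left out, and 5 fell, 1 of them so. Syt7, a calcium sensor of vesicle release, was at 0.463, 0.192 and 0.664 CPM in the controls and 8.61, 4.65 and 5.26 CPM with Neurog1 (log2 fold change 3.78 ± 0.55, adjusted p = 0.000266), above the controls in all 3 Neurog1 libraries, and Doc2b, another such sensor, rose from 0.149 to 3.47 CPM (4.49 ± 0.60). Nlgn1, a postsynaptic adhesion protein, rose from 0.143 to 7.65 CPM (5.63 ± 0.54, 6.71 without control library c), and the scaffold Homer2 from 7.31 to 44.3 CPM (2.60 ± 0.30). Lrrtm3, another adhesion protein, had 4, 18 and 14 counts in the controls and 0 counts in all 3 Neurog1 libraries. Of 50 genes of the neuronal cytoskeleton and growth cone 7 rose and 6 fell, 4 and 3 of them whichever library was left out. The kinesin Kif21b rose from 15.3 to 107 CPM (2.80 ± 0.43) and the ankyrins Ank2 and Ank3 by 1.53 ± 0.32 and 1.49 ± 0.33 on the log2 scale. Dclk1, a doublecortin relative, fell from 59.2 to 16.2 CPM (-1.87 ± 0.30), and Camk2a, a synaptic kinase, from 3.87 to 0.939 CPM (-2.04 ± 0.44). A tektin was the lone riser among 61 cilium and axoneme genes: Tekt1 (chr11:72344722-72362442, minus strand) had 0 counts in all 3 controls and 269, 263 and 266 counts with Neurog1 (at least 266-fold higher, adjusted p = 2.39e-07), and Tppp3, a tubulin-binding protein, fell from 12.2 to 4.96 CPM (-1.29 ± 0.28).

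Guidance cues changed on a broad front, in both directions. Of 72 tested axon guidance genes 16 rose (22.2%) and 11 fell, 11 and 7 of them whichever library was left out. Sema7a, a membrane-anchored semaphorin that promotes axon growth (chr9:57940112-57962865, plus strand), was at 1.85, 0.769 and 1.69 CPM in the controls and 235, 234 and 141 CPM with Neurog1 (log2 fold change 7.14 ± 0.45, adjusted p = 1.18e-07). Sema6d, a transmembrane semaphorin, was at 11.8, 4.23 and 7.72 CPM in the controls and 98.5, 164 and 93.3 CPM with Neurog1 (log2 fold change 3.91 ± 0.39, adjusted p = 1.00e-05). Both lay above the controls in all 3 Neurog1 libraries. Of the 20 semaphorin genes tested 8 rose and 4 fell, and of 10 plexins and neuropilins, their receptors, edgeR called 0, with 1 at an unadjusted p under 0.05, and DESeq2 called 0. Sema3b, Sema3d and Sema3f, secreted repellents, fell, with log2 fold changes of -2.66 ± 0.39, -2.55 ± 0.32 and -2.37 ± 0.36. The netrin receptors went opposite ways: Unc5a rose from 0.993 to 13.6 CPM (3.76 ± 0.40), while Unc5c was at 135, 28.2 and 39.3 CPM in the controls and 10.7, 7.48 and 3.66 CPM with Neurog1 (log2 fold change -3.21 ± 0.54, adjusted p = 0.000811, -2.22 without control library a). The ephrin receptor Epha5 rose from 0.277 to 9.75 CPM (5.11 ± 0.46, 5.87 without control library b) and Epha7 fell from 23.04 to 6.51 CPM (-1.82 ± 0.24), and Rgmb, a repulsive guidance molecule and BMP coreceptor, rose from 16.4 to 63.8 CPM (1.96 ± 0.29). Of 90 cadherins and protocadherins, the cell adhesion molecules, 5 rose (5.6%) and 8 fell (8.9%). Cdh10 of neurons rose from 10.4 to 37.4 CPM (1.84 ± 0.19), Pcdh1 from 0.900 to 20.1 CPM (4.47 ± 0.57), and Cdh3, P-cadherin, fell from 20.6 to 1.36 CPM (-3.92 ± 0.63).

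**Figure D4:**
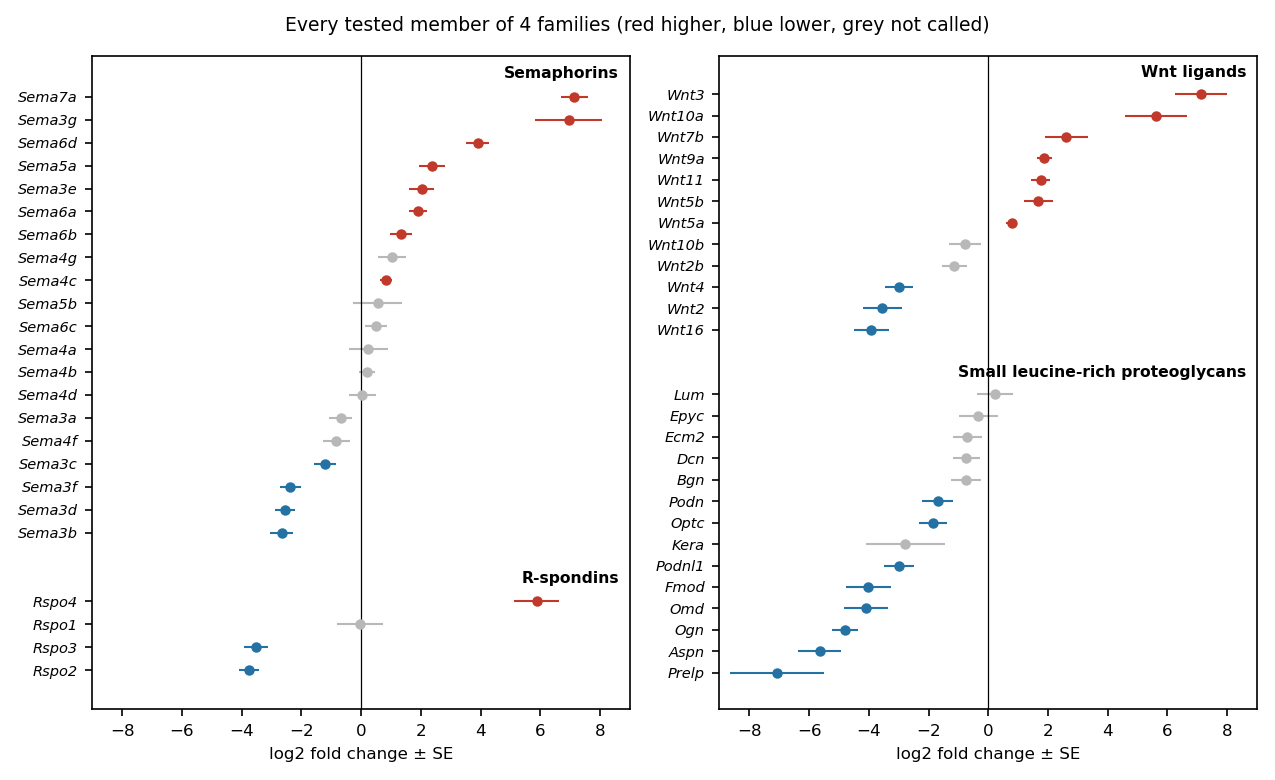
Log2 fold change ± SE (horizontal axis) of each tested member of 4 families, with red called higher, blue called lower and grey not called. Semaphorins and Wnt ligands hold members on both sides, R-spondins split with Rspo4 higher and Rspo2 and Rspo3 lower, and 8 of 14 small leucine-rich proteoglycans are lower; Prelp had 0 counts with Neurog1, so its fitted value is no bound.

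Wnt signalling genes moved in both directions. Of 56 tested genes 14 rose and 14 fell (25% each), 9 and 12 of them whichever library was left out. The ligand Wnt3 reached 7.56, 7.83 and 5.33 CPM (164-fold higher, with a 95% counting interval of 45.1 to 1362, adjusted p = 5.36e-05), and Wnt9a was at 4.502, 9.097 and 8.39 CPM in the controls and 21.8, 28.4 and 30.98 CPM with Neurog1 (log2 fold change 1.88 ± 0.26, adjusted p = 0.000184). Wnt16, a ligand of skeletal tissues, was at 7.55, 23.9 and 15.7 CPM in the controls and 0.789, 1.29 and 0.999 CPM with Neurog1 (log2 fold change -3.92 ± 0.59, adjusted p = 0.000333). For each of these ligands the groups did not overlap. The R-spondins, which raise Wnt receptor levels, parted: Rspo4 rose from 0.110 to 6.68 CPM (5.87 ± 0.77, 7.43 without control library a and 5.27 without control library c), while Rspo2 was at 15.5, 14.7 and 12.8 CPM in the controls and 1.32, 0.706 and 1.13 CPM with Neurog1 (log2 fold change -3.76 ± 0.33, adjusted p = 3.56e-06) and Rspo3 fell from 16.2 to 1.398 CPM (-3.52 ± 0.39). Among the inhibitors, Notum, an enzyme that inactivates Wnt proteins, rose from 0.741 to 29.3 CPM (5.27 ± 0.54, 6.08 without control library c), although reads of the overlapping antisense gene Notumos could not be told apart. Sfrp1 fell from 65.8 to 17.4 CPM (-1.92 ± 0.29) and Dkk3 from 49.8 to 9.75 CPM (-2.35 ± 0.36). The receptor Fzd1 rose from 56.7 to 182 CPM (1.69 ± 0.28), and beta-catenin, Ctnnb1, was not called (-0.16 ± 0.17).

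In the TGF-beta and BMP pathway the ligands and binding proteins split. Of 60 tested genes 13 rose (21.7%) and 9 fell (15%), 6 and 4 of them whichever library was left out. Bmp2 was at 1.46, 3.08 and 2.29 CPM in the controls and 51.6, 18.5 and 33.4 CPM with Neurog1 (log2 fold change 3.92 ± 0.61, adjusted p = 0.000467), and Bmp7 rose from 0.930 to 7.99 CPM (3.09 ± 0.46). Each Neurog1 library was above each control for Bmp2. Tgfbr2, the TGF-beta receptor, rose from 102 to 320.0 CPM (1.65 ± 0.27), and the ligand Tgfb3 was at 133, 102 and 146 CPM in the controls and 28.1, 21.5 and 26.6 CPM with Neurog1 (log2 fold change -2.32 ± 0.33, adjusted p = 0.000225). Fstl1, a follistatin-like secreted protein, fell from 1657 to 465 CPM (-1.83 ± 0.26), and Bmper, a BMP-binding protein, from 30.99 to 5.14 CPM (-2.59 ± 0.33). Among FGF and MAP kinase genes 8 of 66 rose and 6 fell, 7 and 3 of them whichever library was left out. The feedback inhibitors Spry1, Spred1 and Spred2 rose by 1.59 ± 0.27, 1.29 ± 0.24 and 1.32 ± 0.25 on the log2 scale, and the phosphatase Dusp2 was at 1.13, 0.448 and 0.543 CPM in the controls and 8.68, 20.8 and 14.1 CPM with Neurog1 (log2 fold change 4.36 ± 0.43, adjusted p = 8.56e-06). The FGF receptors exchanged, with Fgfr1 rising from 158 to 364 CPM (1.20 ± 0.26) and Fgfr2 falling from 41.5 to 7.298 CPM (-2.51 ± 0.30). The ligand Fgf7 fell from 130.1 to 22.4 CPM (-2.54 ± 0.36). Among 40 receptor kinases 6 rose and 6 fell, with Tyro3 and Mertk, receptors that recognise dying cells, rising by 2.73 ± 0.28 and 1.76 ± 0.27 on the log2 scale and Pdgfra, a fibroblast receptor, at 108, 212 and 158 CPM in the controls and 24.6, 30.3 and 32.2 CPM with Neurog1 (log2 fold change -2.46 ± 0.31, adjusted p = 7.76e-05).

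Contractile genes had the largest share of falls among the lists with at least 10 tested genes. Of 37 tested genes 18 fell (48.6%), 15 of them whichever library was left out, and the other 19 were not called; the median log2 fold change was -0.98. Acta2, smooth muscle actin (chr19:34241090-34255590, minus strand), was at 6135, 3342 and 4688 CPM in the controls and 1385, 543 and 856 CPM with Neurog1 (log2 fold change -2.35 ± 0.40, adjusted p = 0.000972). Mylk, the kinase that starts smooth muscle contraction, was at 21.9, 42.3 and 28.8 CPM in the controls and 1.38, 2.18 and 1.799 CPM with Neurog1 (log2 fold change -4.11 ± 0.51, adjusted p = 6.89e-05). Cnn1, calponin, was at 255, 136 and 311 CPM in the controls and 23.3, 9.89 and 35.97 CPM with Neurog1 (log2 fold change -3.35 ± 0.53, adjusted p = 0.000495). In all 3 genes every Neurog1 library lay below every control. The myosin light chain Myl9 and the actin nucleator Lmod1 fell, with log2 fold changes of -2.18 ± 0.32 and -2.69 ± 0.32. Actg2 fell from 173 to 26.2 CPM (-2.73 ± 0.31), and reads of the near-identical actins Acta2, Actg2 and Actc1 may be split or dropped by the counting. Itgb1, the shared integrin subunit, was the uncalled member with the highest CPM (-0.60 ± 0.22, adjusted p = 0.0956), but DESeq2 called it lower (adjusted p = 0.0305), as did edgeR on genes of at least 5 CPM (adjusted p = 0.0461).

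Of 46 tested targets of the actin-sensing factors SRF, MRTF and YAP 12 fell, 8 of them whichever library was left out, while 3 rose. Thbs1, thrombospondin, was at 4617, 948 and 1658 CPM in the controls and 561, 182 and 228 CPM with Neurog1 (log2 fold change -2.89 ± 0.66, adjusted p = 0.00807, -3.55 without Neurog1 library a and -2.01 without control library a). Ccn5, a matricellular protein, was at 10.7, 40.6 and 32.2 CPM in the controls and 0, 0.294 and 0.400 CPM with Neurog1 (log2 fold change -6.86 ± 0.79, adjusted p = 3.79e-05). F3, tissue factor, fell from 219 to 39.3 CPM (-2.48 ± 0.39) and Amotl2, a YAP inhibitor, from 194 to 65.7 CPM (-1.56 ± 0.24). The groups of Thbs1 and Ccn5 did not overlap, and for Thbs1 control a stood well above the other controls. Fjx1, a YAP-regulated secreted protein, rose from 9.82 to 74.5 CPM (2.92 ± 0.31). Of 32 skeletal muscle genes 12 fell and 1 rose, 4 of the falls whichever library was left out, and Actc1 was at 19.7, 22.2 and 8.75 CPM in the controls and 0.986, 2.47 and 0.999 CPM with Neurog1 (log2 fold change -3.49 ± 0.65, adjusted p = 0.00201, -4.09 without Neurog1 library b). Regulators of small GTPases that act as switches of the actin skeleton moved both ways, with 10 of 96 higher and 11 lower, 5 of each whichever library was left out. Prex1, a Rac activator, was at 2.32, 6.09 and 3.198 CPM in the controls and 41.3, 113 and 40.7 CPM with Neurog1 (log2 fold change 4.07 ± 0.54, adjusted p = 0.000106, 3.39 without Neurog1 library b), and Cdc42ep3, a Cdc42 effector, was at 152, 80.6 and 97.6 CPM in the controls and 15.5, 9.48 and 15.8 CPM with Neurog1 (log2 fold change -3.02 ± 0.40, adjusted p = 0.000116). The cofilin kinases exchanged: Limk1 rose from 23.1 to 51.2 CPM (1.15 ± 0.23) and Limk2 fell from 75.4 to 37.6 CPM (-1.01 ± 0.20).

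Matrix genes changed in both directions among the collagens and fell in larger number than they rose among the proteoglycans and glycoproteins. Of 43 tested collagen genes 8 rose (18.6%) and 9 fell (20.9%), 7 and 6 of them whichever library was left out. Col18a1, a basement membrane collagen, was at 6.95, 12.7 and 11.04 CPM in the controls and 109, 289 and 115 CPM with Neurog1 (log2 fold change 4.06 ± 0.56, adjusted p = 0.000168, 3.43 without Neurog1 library b). Col3a1, a fibrillar collagen, was at 305, 553 and 423 CPM in the controls and 1822, 1929 and 1021 CPM with Neurog1 (log2 fold change 1.90 ± 0.39, adjusted p = 0.00362). Col12a1, which coats fibrils, was at 619, 297 and 318 CPM in the controls and 109, 71.3 and 46.4 CPM with Neurog1 (log2 fold change -2.44 ± 0.42, adjusted p = 0.00101). Col5a3 and Col27a1 rose by 3.59 ± 0.41 and 2.52 ± 0.28 on the log2 scale, Col11a1 fell from 81.1 to 16.7 CPM (-2.27 ± 0.34) and Col2a1 from 24.7 to 5.15 CPM (-2.26 ± 0.46), and Col1a1, the main fibrillar collagen, was not called (-0.92 ± 0.60, adjusted p = 0.395). Of 71 proteoglycans and matrix glycoproteins 21 fell (29.6%) and 6 rose, 12 and 3 of them whichever library was left out. Their median log2 fold change was -0.69, and their summed level was 12470 to 17390 CPM in the controls and 7436 to 11190 CPM with Neurog1. Aspn, asporin, was at 39.7, 179 and 84.96 CPM in the controls and 0.263, 1.59 and 4.197 CPM with Neurog1 (log2 fold change -5.65 ± 0.71, adjusted p = 7.17e-05, -6.72 without Neurog1 library c and -4.97 without control library b), and Ogn, osteoglycin, was at 131, 316 and 148 CPM in the controls and 5.66, 5.53 and 10.2 CPM with Neurog1 (log2 fold change -4.80 ± 0.43, adjusted p = 3.93e-06). Omd fell from 4.81 to 0.279 CPM (-4.08 ± 0.74), Podnl1 from 10.3 to 1.298 CPM (-2.98 ± 0.50) and the elastic fibre protein Fbln5 from 199 to 30.2 CPM (-2.72 ± 0.34). The crosslinking enzyme Loxl2 rose from 98.9 to 386 CPM (1.96 ± 0.28) and Hapln1, which ties hyaluronan to proteoglycans, from 3.39 to 33.97 CPM (3.32 ± 0.57, 4.09 without control library c), while Sparc was not called (-0.37 ± 0.29).

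Among proteases and their inhibitors 12 of 74 rose and 8 fell, 9 and 5 of them whichever library was left out. Ctsl, a lysosomal cathepsin, was at 486, 819 and 721 CPM in the controls and 2006, 2299 and 2070.2 CPM with Neurog1 (log2 fold change 1.65 ± 0.30, adjusted p = 0.00149). Adamts4, an aggrecanase, was at 5.03, 6.09 and 7.48 CPM in the controls and 28.9, 87.1 and 25.4 CPM with Neurog1 (log2 fold change 2.93 ± 0.50, adjusted p = 0.000941, 2.12 without Neurog1 library b), while Adamts5, the other main aggrecanase, was at 90.3, 64.3 and 50.9 CPM in the controls and 10.2, 10.5 and 7.06 CPM with Neurog1 (log2 fold change -2.89 ± 0.31, adjusted p = 1.81e-05). Both aggrecanases were free of overlap between groups, in opposite directions. Mmp15, a membrane-type metalloproteinase, rose from 0.906 to 11.9 CPM (3.70 ± 0.47), the inhibitor Timp3 fell from 145 to 31.7 CPM (-2.19 ± 0.34), and Serpinb9, which blocks granzyme B, rose from 24.3 to 115 CPM (2.24 ± 0.31). Integrins and other adhesion genes moved both ways, with 4 of 40 adhesion genes higher and 5 lower. Itga7, a laminin receptor, rose from 5.88 to 23.6 CPM (2.003 ± 0.34), and the collagen receptor Itga11 was at 7.81, 24.7 and 13.3 CPM in the controls and 0.855, 1.18 and 0.400 CPM with Neurog1 (log2 fold change -4.21 ± 0.75, adjusted p = 0.00138). Of 12 connexins and pannexins 5 fell and 1 rose, with Gjb2 at 15.4, 4.68 and 8.21 CPM in the controls and 0.460, 0.118 and 0.266 CPM with Neurog1 (log2 fold change -5.05 ± 0.65, adjusted p = 9.16e-05), and Gja1, the cardiac connexin, was not called (-0.92 ± 0.37).

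Inflammatory genes moved in both directions, and their summed level was lower with Neurog1. Of 72 tested genes 12 fell and 8 rose, 7 and 5 of them whichever library was left out, and their summed level was 2968 to 3983 CPM in the controls and 1517 to 1576 CPM with Neurog1. Cxcl14, a chemokine of epithelia and fibroblasts, was at 19.7, 80.5 and 52.01 CPM in the controls and 1.38, 1.82 and 3.33 CPM with Neurog1 (log2 fold change -4.54 ± 0.68, adjusted p = 0.000343), and Il1rn, the interleukin-1 receptor antagonist, was at 19.7, 42.7 and 35.8 CPM in the controls and 0.986, 1.65 and 1.399 CPM with Neurog1 (log2 fold change -4.60 ± 0.59, adjusted p = 8.52e-05). Il1rl1, the interleukin-33 receptor, was at 794, 479 and 635 CPM in the controls and 117, 68.99 and 144 CPM with Neurog1 (log2 fold change -2.53 ± 0.47, adjusted p = 0.00199), while its ligand Il33 was at 0.199, 4.16 and 1.75 CPM in the controls and 17.1, 13.8 and 19.3 CPM with Neurog1 (log2 fold change 3.03 ± 0.70, adjusted p = 0.00908, 4.05 without control library b). In all 4 genes the groups did not overlap. Il1r2, a decoy receptor for interleukin-1, rose from 0.563 to 8.89 CPM (3.96 ± 0.76, 4.66 without control library b), and Vcam1, an adhesion molecule, fell from 238 to 65.2 CPM (-1.87 ± 0.30). Ptgs2, the prostaglandin enzyme, was the uncalled member with the highest CPM, at 1334, 112 and 391 CPM in the controls and 199, 44.03 and 94.3 CPM with Neurog1 (adjusted p = 0.0635). It was called lower by DESeq2 (adjusted p = 0.0499), and by edgeR with no filter (adjusted p = 0.000265) or without control library b (adjusted p = 0.0217). Macrophage markers moved beside these genes: the summed level of the 15 tested of 17 listed markers was 178 to 273 CPM in the controls and 67.1 to 92.1 CPM with Neurog1. Of the 15 tested, 1 was called, Itgam, which rose (2.06 ± 0.34), and each of the 17 had reads in the controls. Their part in the inflammatory falls was not tested. Of 50 interferon-stimulated genes 1 was higher and 1 lower.

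Some metabolic genes also changed. Of 41 cholesterol and fatty acid genes 9 fell and the other 32 were not called, but Sc5d, a late cholesterol enzyme, alone kept its call whichever library was left out. It was at 134, 209 and 158 CPM in the controls and 61.2, 91.7 and 75.1 CPM with Neurog1 (log2 fold change -1.14 ± 0.23, adjusted p = 0.00393), below the controls in all 3 libraries. Among 38 glycolysis and hypoxia genes 4 rose (10.5%) and 3 fell (7.9%), all 7 whichever library was left out. The lactate transporter Slc16a1 rose from 85.4 to 289 CPM (1.76 ± 0.31), the oxygen sensor Egln3 from 15.6 to 42.8 CPM (1.46 ± 0.19) and Ndrg1 from 13.6 to 50.5 CPM (1.90 ± 0.30), while Slc2a3, a glucose transporter, fell from 14.3 to 3.39 CPM (-2.08 ± 0.36) and the neuronal enolase Eno2 from 36.1 to 7.45 CPM (-2.28 ± 0.31). These 5 do not share a direction although all are on the hypoxia list. Of 27 NRF2 targets and metallothioneins 2 rose (7.4%) and 4 fell (14.8%). Srxn1, a repair enzyme for oxidised peroxiredoxins and an NRF2 target, was at 64.7, 67.01 and 85.1 CPM in the controls and 648, 322 and 439 CPM with Neurog1 (log2 fold change 2.70 ± 0.31, adjusted p = 3.43e-05), and Akr1b8, an aldo-keto reductase, rose from 71.3 to 318 CPM (2.16 ± 0.41). On this list Gsta4 fell from 17.2 to 4.87 CPM (-1.82 ± 0.41) and Ephx1 from 93.2 to 34.8 CPM (-1.42 ± 0.26), both detoxifying enzymes. Of 256 solute carriers 23 rose (9.0%) and 18 fell (7.0%), 16 and 7 of them whichever library was left out. These shares are near the 6.78% and 5.42% over all genes tested. Slc27a3, a fatty acid carrier, was at 7.48, 24.2 and 19.2 CPM in the controls and 162, 282 and 147 CPM with Neurog1 (log2 fold change 3.54 ± 0.41, adjusted p = 3.51e-05).

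Cell cycle, ribosome and respiration genes, with 1 exception by DESeq2, did not pass the test. Of 48 DNA replication and 48 mitosis genes edgeR called 0, with 1 and 4 at an unadjusted p under 0.05, and DESeq2 called 0 of each. The fitted log2 fold changes spanned -0.42 to 0.72 and -0.67 to 0.60. Of 81 cytosolic ribosomal protein genes edgeR and DESeq2 called 0, with 0 at an unadjusted p under 0.05 and log2 fold changes from -0.38 to 0.24. Of 92 oxidative phosphorylation genes edgeR called 0, with 3 at an unadjusted p under 0.05, and DESeq2 called 1, with log2 fold changes from -3.34 to 2.72. Top2a, a mitotic topoisomerase, was at 797, 534 and 606 CPM in the controls and 744, 668 and 581 CPM with Neurog1 (adjusted p = 0.969), with overlapping groups. On the list of cell cycle inhibitors, D cyclins, E2F factors and p53 targets 3 of 46 rose (6.5%) and 4 fell (8.7%). Among the rises were E2f1, a factor of cell cycle entry, and its relative E2f4: E2f1 was at 39.00, 41.1 and 52.7 CPM in the controls and 146, 201 and 169.9 CPM with Neurog1 (log2 fold change 1.96 ± 0.19, adjusted p = 7.03e-06), and E2f4 rose from 54.4 to 158 CPM (1.54 ± 0.15). Of 27 Bcl2-family genes 1 rose and 1 fell, and Bmf, a death-promoting member, fell from 5.17 to 0.594 CPM (-3.08 ± 0.69, -3.95 without Neurog1 library b and -2.33 without control library b).

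**Figure D5:**
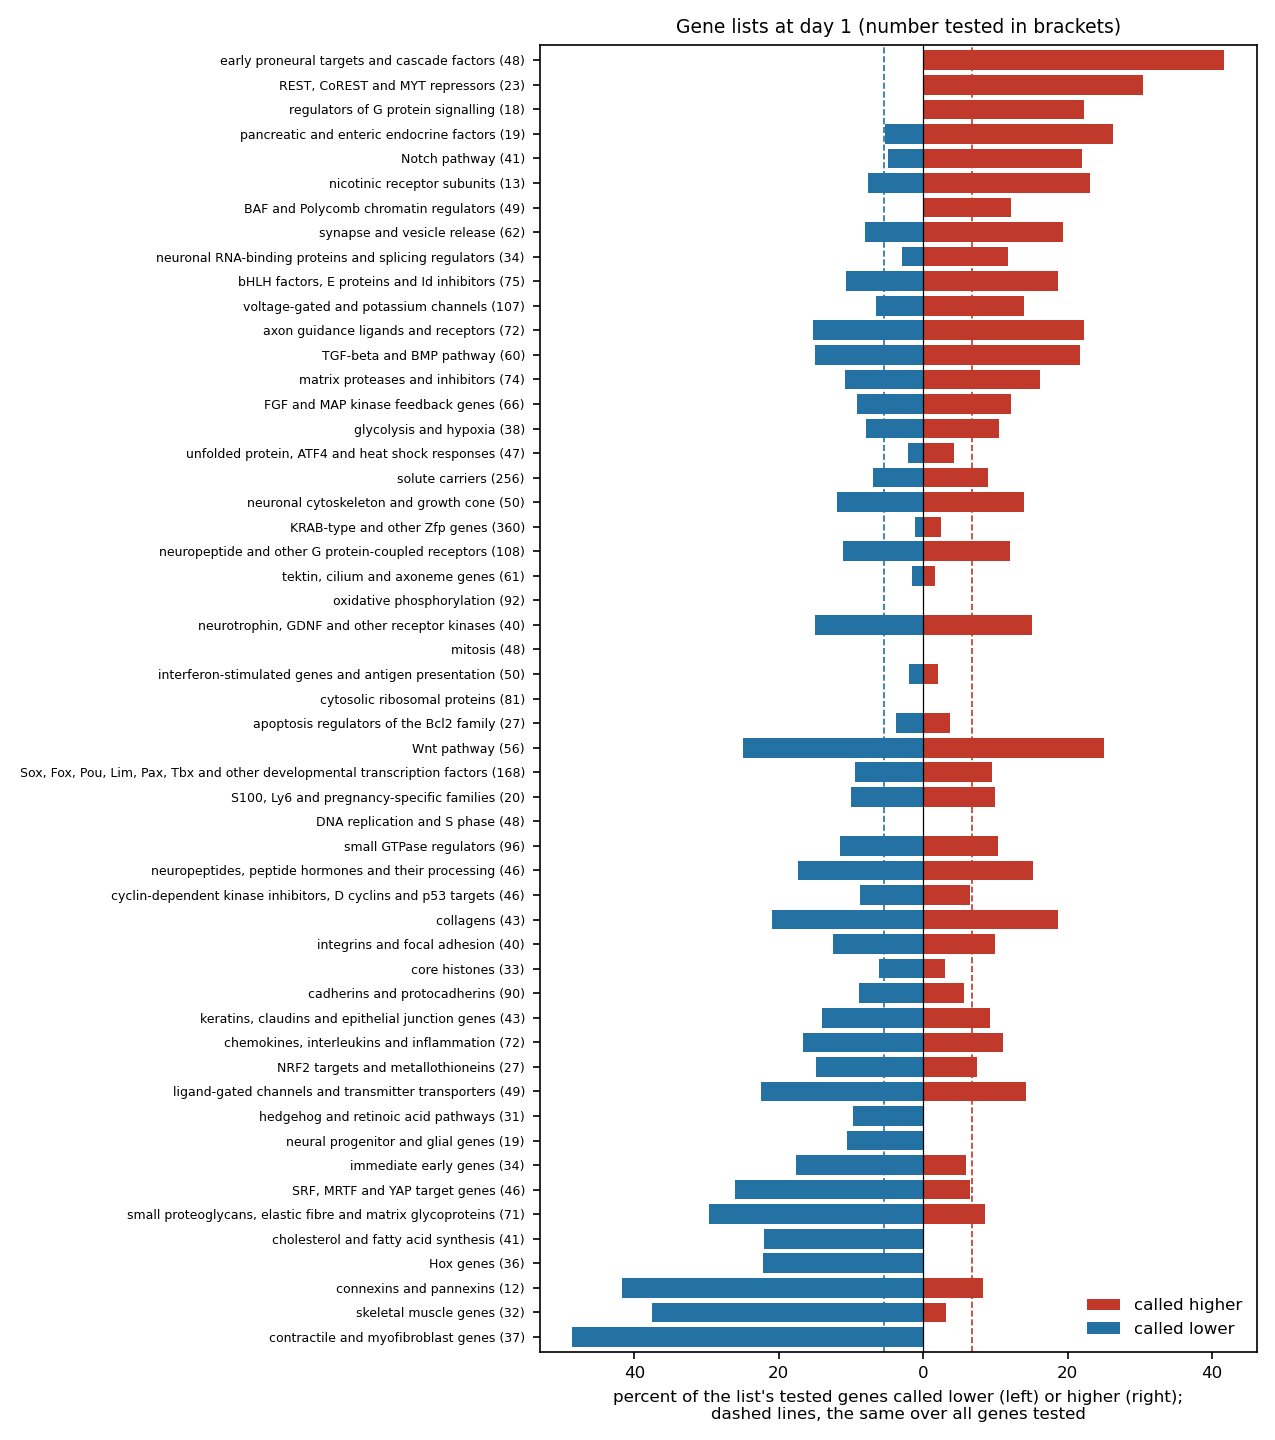
Percent of tested genes called higher (red, right) and lower (blue, left) at day 1 for each gene list with at least 10 tested genes, ordered by the difference, with dashed lines at 6.78% and 5.42%, the shares over all genes tested. The early proneural list (41.7% higher) and the contractile list (48.6% lower) stand at the ends, and the replication, mitosis, ribosomal protein and oxidative phosphorylation lists have no bar.

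Of 49 BAF and Polycomb chromatin genes 6 rose and 43 were not called, 3 of the rises whichever library was left out, while DESeq2 called 8 higher and 2 lower. Bcl7a, a BAF subunit, was at 28.9, 26.3 and 27.8 CPM in the controls and 68.4, 102 and 66.6 CPM with Neurog1 (log2 fold change 1.51 ± 0.23, adjusted p = 0.000378), Smarcd2 rose from 51.7 to 90.00 CPM (0.80 ± 0.18) and Jarid2, a Polycomb cofactor, from 18.7 to 41.7 CPM (1.15 ± 0.21). Of 34 neuronal RNA-binding genes 4 rose and 1 fell. Rbm24, a splicing factor known from muscle, rose from 1.77 to 8.004 CPM (2.17 ± 0.41), and Mbnl1, muscleblind, was at 489, 247 and 265 CPM in the controls and 166, 121 and 138 CPM with Neurog1 (log2 fold change -1.23 ± 0.27, adjusted p = 0.00632).

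The genes with the largest changes in CPM included matrix and cytoskeletal genes. H19, the imprinted long noncoding RNA (chr7:142575529-142578143, minus strand), was at 2249, 5738 and 3771 CPM in the controls and 904, 661 and 869 CPM with Neurog1 (log2 fold change -2.27 ± 0.37, adjusted p = 0.000602). Anxa1, a phospholipid-binding protein, fell from 1945 to 523 CPM (-1.90 ± 0.44), and Dstn, an actin-severing protein, from 1309 to 581 CPM (-1.17 ± 0.19). Pdpn, podoplanin, rose from 210.0 to 738 CPM (1.81 ± 0.31), and Plod2, a collagen lysyl hydroxylase, from 155 to 512 CPM (1.72 ± 0.21). For H19 the Neurog1 libraries all lay below the controls. Postn, the matrix protein periostin, was at 961, 2889 and 1422 CPM in the controls and 722, 744 and 766 CPM with Neurog1 (log2 fold change -1.24 ± 0.32, adjusted p = 0.0182), and its call was lost without control library b or Neurog1 library a, b or c (adjusted p = 0.0518 to 0.123). Tpm1, a tropomyosin, fell from 2961 to 1225 CPM (-1.27 ± 0.28). Tmsb4x, a thymosin that binds actin monomers, was at 2970.4, 2836 and 3179 CPM in the controls and 4844, 5261 and 8360.4 CPM with Neurog1 (log2 fold change 1.04 ± 0.26, adjusted p = 0.0134), and its call was lost without control library b or Neurog1 library c (adjusted p = 0.0604 to 0.0714).

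The label of the cells was checked against markers. Fibroblast genes were abundant in both groups, with the 18 tested of 19 listed markers summing to 11630 to 14200 CPM in the controls and 7417 to 10650 CPM with Neurog1. Of 18 tested 4 fell and 1, Col3a1, rose, and Vim, the mesenchymal filament, was not called (-0.75 ± 0.44, adjusted p = 0.334). Endothelial markers were sparse: the 8 tested of 13 listed genes summed to 76.6 to 121 CPM and 48.9 to 69.6 CPM. Of the 8 tested 3 fell and 1 rose. Erg, an endothelial factor, had 43, 118 and 136 counts in the controls and 1, 5 and 1 counts with Neurog1 (log2 fold change -5.34 ± 1.07, adjusted p = 0.00324, -6.41 without Neurog1 library b), Tek fell from 1.64 to 0.232 CPM (-2.77 ± 0.64, -2.12 without control library a), and Cdh5, VE-cadherin, had 1, 0 and 2 counts in the controls and 68, 23 and 27 counts with Neurog1 (39.4-fold higher, with a 95% counting interval of 13.2 to 194). Kdr, the VEGF receptor, fell with 674, 38 and 101 counts in the controls and 24, 5 and 15 counts with Neurog1, but not without control library a (adjusted p = 0.0651). Of the 13 listed endothelial genes 1, Cldn5, had 0 counts in all 6 libraries. Of 12 pan-neuronal markers 2 fell, among them Map2, and the other 10 were not called. Map2 stayed called lower whichever library was left out. The 12 had summed levels of 154 to 180 CPM in the controls and 190 to 261 CPM with Neurog1. Adipocyte, epithelial and cartilage markers, and those of neural crest and Schwann cells, had 2, 2, 1 and 1 called genes of 7, 5, 9 and 11 tested. Of 8 erythroid markers 4 had no counts and the others too few to test.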

How the data were processed

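RNA was polyadenylated RNA extracted with TRIzol and made into libraries with a NEBNext Ultra kit, per the labels' protocols. The deposited table holds raw counts of reads per gene, which the authors made with CASAVA, HISAT2 and featureCounts on mm10, per the submitters' processing notes; no version, annotation release or strand setting is given in the sources used here. Of 43432 gene IDs 42548 were named through GENCODE M21, and the 884 unnamed IDs held 0.1199% of counts. Counts were fitted in R 4.3.3 with edgeR 4.0.16 (TMM factors, filterByExpr, quasi-likelihood F test, prior count 0.125) on all 15 libraries with 1 mean for each of the 5 groups, so that the groups share 1 estimate of the spread, and p-values were adjusted by Benjamini-Hochberg over all 16872 genes tested. The SE of a log2 fold change was derived from the F statistic. For genes with at most 3 counts in a group, folds come from the counts scaled to library size, with an exact 95% interval, or against a floor of 3 counts where a group had none; both cover counting error only. The method was tested on simulated data.

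The gene lists, naming rule and tests were chosen with earlier results of these data known. Named genes were the extremes of fold change and of CPM change, the leading called members of each list that held in all fits leaving out 1 library, the uncalled member with the highest CPM, all called proneural and Notch genes, and markers. From these only some are described, and members of the drawn families, other markers and neighbouring genes were named after their values were seen. Promoter windows are those of RefSeq for GRCm38.p6, and coordinates are mm10 from GENCODE M21. Alternatives were other scaling, filters, DESeq2 1.42.0, fewer libraries, a replicate block and leaving out each library. Some results are not reported here.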

Additional observations from a re-analysis of the deposited data

How the results depend on the processing

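Against 1144 genes higher and 914 lower, DESeq2's size factors gave 1109 and 940, library totals 1130 and 869, no filter 1222 and 1153, a mean of at least 5 CPM 829 and 773, DESeq2 1371 and 1212, the 6 libraries compared 1024 and 1082, and the 9 libraries of controls and day 1 1081 and 1010. With 1 library left out they were 765 to 983 and 550 to 770. Libraries with the same letter deviated together with correlations of 0.5091, 0.3641 and 0.05559 for a, b and c. Neurog1 library c correlated best with control library b (0.1438). Whether the letters mark a pairing is not given in the sources used here, and these correlations do not settle it. The replicate block gave 1485 higher and 1275 lower, and with the 6 libraries alone 1556 and 1821; the cause was not tested. Of 3643 values for 246 named genes 3592 kept direction and side of the threshold. Part of this was fixed by the naming rule, which took leading list members that held in all fits leaving out 1 library. Those fits gave 1476 of the values. Over all called genes, 656 of 1144 higher and 405 of 914 lower held in them. Top2a, not called in any fit, had a log2 fold change of 0.041 (-0.0090 with the 6 libraries, -0.098 to 0.21 with 1 library left out). Numbl was no longer called with the 9 libraries (0.86, adjusted p = 0.0542). Calls lost without 1 library are given beside their genes. In 18 values a gene that was not called gained a call. With the replicate block these were Tubb3 (adjusted p = 0.0313, or 1.53e-05 with the 6 libraries), Vim (by the same fits, adjusted p = 0.0355 and 0.0129), Gja1 (0.0239 and 0.000585), Itgb1 (0.0107 and 0.0345), Ptgs2 (0.0163 and 6.17e-10) and, with the 6 libraries alone, Col1a1 (0.00058). Gja1 was also called with no filter (0.0316), and the others without the block are beside their genes. At 16736544 to 17859844 counts a library, genes with a few counts are limited by counting error, and 3 libraries a group limit the rest.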

Other observations

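Of 31 tested hedgehog and retinoic acid genes 3 fell and the other 28 were not called, 2 of the falls whichever library was left out, while DESeq2 called 6 lower and 1 higher. Crabp2, which carries retinoic acid to its receptors, was at 16.4, 79.9 and 47.9 CPM in the controls and 3.02, 3.65 and 6.93 CPM with Neurog1 (log2 fold change -3.41 ± 0.66, adjusted p = 0.00248), and Rarb, a receptor for retinoic acid and itself switched on by it, at 14.4, 12.1 and 12.3 CPM in the controls and 2.17, 1.82 and 2.07 CPM with Neurog1 (log2 fold change -2.67 ± 0.34, adjusted p = 7.17e-05). In both genes every Neurog1 library lay below every control. Of 34 immediate early genes 2 rose and 6 fell, 3 of the falls whichever library was left out. Fosl2, an AP-1 subunit, fell from 135 to 56.7 CPM (-1.25 ± 0.21), and Zfp36l1, a protein that destabilises mRNA, from 36.2 to 14.99 CPM (-1.27 ± 0.29). Of 47 genes of the unfolded protein, ATF4 and heat shock responses 2 rose and 1 fell. Vldlr, a lipoprotein receptor through which reelin signals, was at 22.2, 37.4 and 23.6 CPM in the controls and 117, 268 and 143 CPM with Neurog1 (log2 fold change 2.67 ± 0.39, adjusted p = 0.000244), above the controls in all 3 libraries, and the small heat shock protein Hspb1 fell from 183 to 78.5 CPM (-1.22 ± 0.27). Gadd45b, a stress-induced gene, fell from 28.97 to 5.68 CPM (-2.35 ± 0.33).

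Of 43 keratin, claudin and epithelial junction genes 4 rose and 6 fell, 4 and 3 of them whichever library was left out. Krt8, a keratin of simple epithelia, was at 2.25, 2.88 and 2.896 CPM in the controls and 34.3, 19.9 and 28.9 CPM with Neurog1 (log2 fold change 3.37 ± 0.47, adjusted p = 0.000181), and the plaque protein Jup, plakoglobin, rose from 39.00 to 103 CPM (1.40 ± 0.26). Krt8 was above the controls in all 3 Neurog1 libraries. Krt14, a keratin of basal epidermis, had 14, 36 and 20 counts in the controls and 1, 0 and 0 counts with Neurog1, and Sfn, an epithelial 14-3-3 protein, fell from 17.2 to 3.02 CPM (-2.50 ± 0.55). Of 20 S100, Ly6 and pregnancy-specific genes 2 rose and 2 fell. Ly6e rose from 129 to 323 CPM (1.32 ± 0.30), and Psg22, a pregnancy-specific glycoprotein, had 0 counts in all 3 controls and 61, 148 and 65 counts with Neurog1 (at least 91.5-fold higher, adjusted p = 0.000188), although reads of such near-identical paralogs may be split or dropped by the counting. Of 33 core histone genes 1 rose and 2 fell, and of 19 neural progenitor and glial genes 2 fell, which were Slc1a3 and the forebrain factor Emx2 (-1.38 ± 0.25).

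Some of the changed genes are neighbours in the genome. Among protein-coding genes in order of position, runs of 3 or more consecutive tested genes called in the same direction were picked out after their values were seen, and their number was not compared with any other. The small leucine-rich proteoglycans Aspn, Omd and Ogn form 1 such run on chromosome 13 (49544443 to 49624501, mm10), all lower, and Optc, Prelp and Fmod form another on chromosome 1 (133897199 to 134048277), all lower. Fmod, fibromodulin, was at 2.78, 9.23 and 6.76 CPM in the controls and 0.395, 0.353 and 0.400 CPM with Neurog1 (log2 fold change -4.01 ± 0.75, adjusted p = 0.00199), and Optc, opticin, at 2.18, 3.395 and 3.92 CPM in the controls and 1.05, 0.647 and 0.933 CPM with Neurog1 (log2 fold change -1.85 ± 0.47, adjusted p = 0.0153). Optc lost its call without control library c or Neurog1 library b (adjusted p = 0.0585 to 0.0729). Reads of overlapping neighbours cannot be told apart, since a strand setting is not given in the sources used here.

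Hpca, hippocalcin, a calcium sensor of hippocampal neurons, was at 0 CPM in all 3 controls and 3.16, 11.5 and 2.86 CPM with Neurog1 (at least 95.8-fold higher, adjusted p = 0.000975). Btbd17, a BTB-domain gene, was at 0, 0.0641 and 0.0603 CPM in the controls and 39.7, 68.4 and 38.1 CPM with Neurog1 (1171-fold higher, with a 95% counting interval of 324 to 9675, adjusted p = 7.56e-08). Pex5l, which traffics neuronal pacemaker channels, was at 0.0662, 0 and 0 CPM in the controls and 13.7, 14.5 and 13.1 CPM with Neurog1 (652-fold higher, with a 95% counting interval of 117 to 25795, adjusted p = 2.25e-06), and Cdhr5, a cadherin of intestinal microvilli, at 0 CPM in all 3 controls and 10.98, 5.95 and 3.797 CPM with Neurog1 (at least 109-fold higher, adjusted p = 9.96e-05). All 4 were near silent in each control. Among the lowest genes not described above, Rtl3, a retrotransposon-derived gene, was at 5.56, 20.6 and 7.24 CPM in the controls and 0.0658, 0.294 and 0.0666 CPM with Neurog1 (log2 fold change -6.17 ± 0.86, adjusted p = 0.000173, -7.26 without Neurog1 library b and -5.39 without control library b), and Ptx3, a pentraxin of innate immunity, at 80.6, 108 and 88.6 CPM in the controls and 3.02, 6.95 and 2.598 CPM with Neurog1 (log2 fold change -4.45 ± 0.57, adjusted p = 8.39e-05, -5.04 without Neurog1 library b). Of 1154 genes of long noncoding RNA types 48 rose and 31 fell, both below the shares over all genes tested (6.78% and 5.42%).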
